A study of Rattus norvegicus with 6 samples.

Results

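The expression of 7 genes of cell division, all of them measured, was followed through cultures of neonatal rat cardiac fibroblasts, and no gene of the 7 differed between the substrates by more than the libraries of a group differed among themselves. The genes were chosen by Ensembl rat gene ID as 7 of the 27108 in the count table. They are Mki67 (ENSRNOG00000028137), Top2a (ENSRNOG00000053047), Ccnb1 (ENSRNOG00000058539), Cdk1 (ENSRNOG00000000632), Pcna (ENSRNOG00000021264), Ccnd1 (ENSRNOG00000020918) and Cdkn1a (ENSRNOG00000000521). The symbols come from the list of IDs that defined the set, since the RefSeq gene table gives a symbol for 0 of the 27108 IDs. The cells came from the ventricles and were kept for 48 h on glass coated either with only fibronectin (UT) or with TTR fibrils in addition (TTR), so fibronectin is shared by both groups. TTR is transthyretin, a plasma carrier protein that forms amyloid fibrils in the heart. Each group held 3 libraries of total RNA. Nothing in the labels says that the libraries of a group came from separate isolations or animals, so the tests measure the spread between these libraries, which may be technical. Cell type markers, and other genes of the cell cycle and p53 pathways, were not analysed here because no row could be matched to their symbols.

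A dividing cell passes from G1, where it commits to division, through DNA synthesis in S phase and through G2 into mitosis. Cyclin-dependent kinases drive the steps when bound by cyclins, whose levels rise and fall with the phases, and inhibitor proteins hold the kinases back. Fibroblasts of the neonatal heart divide readily in culture, where their growth depends on serum, attachment and crowding. In bulk RNA, a smaller share of dividing cells and less transcript in each dividing cell cannot be told apart.

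Promoters of genes that peak in G2 and mitosis commonly carry CCAAT boxes, which bind the factor NF-Y, and the cell cycle homology region searched here as TTTGAA and separately as TTCGAA. Letters were searched on both strands of RefSeq promoter windows of 300 bases in the build GRCr8, while the counts were made on rn6. A window was matched by symbol for 6 of the 7 genes, the exception being Ccnd1. The sequences of Top2a, Ccnb1 and Cdk1 are shown because these 3 genes were each highest in the same 2 libraries. Each runs 5′ to 3′ and ends where the annotated gene span begins, which leaves out 1 of the 2 TTTGAA of Cdk1. Capitals mark CCAAT boxes, the homology region and an E2F motif, each in either orientation. A CCAAT box on the opposite strand therefore reads ATTGG here.
Top2a (GRCr8 chr10:84473094-84473343, minus strand): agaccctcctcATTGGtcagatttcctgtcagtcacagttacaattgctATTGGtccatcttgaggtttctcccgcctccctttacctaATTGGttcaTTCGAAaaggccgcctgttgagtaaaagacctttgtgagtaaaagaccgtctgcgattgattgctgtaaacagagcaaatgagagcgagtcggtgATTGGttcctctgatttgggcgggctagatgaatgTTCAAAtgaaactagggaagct
Ccnb1 (GRCr8 chr2:33655226-33655475, minus strand): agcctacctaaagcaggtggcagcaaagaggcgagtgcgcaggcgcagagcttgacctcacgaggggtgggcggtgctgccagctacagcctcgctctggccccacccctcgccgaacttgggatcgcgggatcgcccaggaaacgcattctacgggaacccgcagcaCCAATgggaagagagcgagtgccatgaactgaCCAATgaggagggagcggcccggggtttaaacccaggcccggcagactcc
Cdk1 (GRCr8 chr20:19265043-19265251, plus strand): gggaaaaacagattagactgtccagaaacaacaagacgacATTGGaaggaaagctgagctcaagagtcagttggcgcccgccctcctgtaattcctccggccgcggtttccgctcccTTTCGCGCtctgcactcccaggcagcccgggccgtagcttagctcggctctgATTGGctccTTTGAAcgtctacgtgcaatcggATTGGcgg
CCAAT stood 4 times in the 300-base window of Mki67, 4 times in that of Top2a, 3 times in that of Cdk1, 2 times in that of Ccnb1, once in that of Pcna and not in that of Cdkn1a. It was held by 37.5% of the 33465 windows in the table. Windows were counted whole. Most of the Mki67 window lay inside the annotated gene span, and only 138 bases of the Cdkn1a window lay before its span. TTTGAA stood 2 times in Mki67, 2 times in Cdk1 and once in Top2a, against 18.3% of all windows. In Mki67 a TTTGAA overlapped a CCAAT box on the opposite strand. TTCGAA stood in Top2a alone of the 6, against 1.69% of all windows. An E2F motif, any of TTTGGCGC, TTTCCCGC, TTTGCCGC or TTTCGCGC, stood in Cdk1 alone, against 2.14%. The Sp1 letters GGGCGG stood in Mki67, Top2a, Ccnb1, Cdk1 and Pcna, against 33.1%. These are matches of letters, not mapped sites of binding.

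The libraries held between 6574199 and 11774729 counts, the largest being TTR replicate 1. Counts of the 7 genes ran from 724 to 5583 per library, so counting alone gives a relative error between 1.34% and 3.72%. The 7 genes together took between 0.136% (UT replicate 3) and 0.189% (TTR replicate 3) of a library. Levels are given as CPM, the count scaled to a common library size, with TMM factors, a scaling that sets the bulk of genes level between libraries. No pair of libraries agreed within sampling noise. On principal components of the other 12042 tested genes, the first (39.6% of the variance) ran from TTR replicate 3 and UT replicate 1 at scores of -30.2 and -18.5 to UT replicate 3 and TTR replicate 1 at 23.0 and 25.5. The second (23.6%) set UT replicate 2 and TTR replicate 2, at 18.5 and 24.5, above the other 4 libraries, which lay between -15.5 and -6.11. The third (18.8%) parted the substrates, with UT libraries at 10.8, 21.5 and 7.55 and TTR libraries at -12.1, -13.6 and -14.1. Across the substrates, libraries also resembled each other in pairs that the replicate numbers do not mark. Deviations from the group means over all tested genes gave a correlation of 0.58 for UT replicate 3 with TTR replicate 1, 0.52 for UT replicate 1 with TTR replicate 3 and 0.44 for the libraries numbered 2. It was negative for the other 6 combinations, in part because the deviations within a group sum to 0. The main test does not model these pairs, so its spread holds what separates them.

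Ccnb1, cyclin B1, is the mitotic partner of the kinase Cdk1. Ccnb1 stood at 116, 170 and 110 CPM in UT replicates 1, 2 and 3 and at 122, 172 and 127 CPM in TTR replicates 1, 2 and 3. Replicate 2 was the high library in both groups, and the remaining 4 libraries lay close together. The group means were 132 ± 33.2 CPM for UT against 140 ± 27.5 CPM for TTR (SD, n = 3). The log2 difference of TTR minus UT was 0.09 (SE 0.20), with an adjusted p of 0.999 over 12049 genes (edgeR quasi-likelihood test, Benjamini-Hochberg).

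Cdk1, the kinase that carries cells into mitosis, stood at 134, 190 and 132 CPM on UT and at 162, 192 and 129 CPM on TTR, in the order of the replicate numbers. Both libraries numbered 2 were again the highest, TTR replicate 1 came next, and the lowest value of all was a TTR library. Mean levels were 152 ± 33.1 CPM for UT against 161 ± 31.3 CPM for TTR (SD, n = 3). The log2 difference was 0.08 (SE 0.19, edgeR adjusted p = 0.999). Within a library the ratio of Cdk1 to Ccnb1 counts does not depend on scaling. It was 1.16 ± 0.0387 on UT and 1.15 ± 0.161 on TTR (SD, n = 3), with the highest library, TTR replicate 1, 1.31 times the lowest, TTR replicate 3.

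Top2a encodes topoisomerase II alpha, which untangles sister DNA before chromosomes separate. Top2a stood at 301, 364 and 252 CPM on UT and at 320, 398 and 316 CPM on TTR. The highest 2 libraries were the replicates numbered 2, and the lowest was UT replicate 3. The means of 306 ± 56.1 CPM for UT against 345 ± 46.2 CPM for TTR (SD, n = 3) gave the largest difference of the 7 genes, 0.17 on the log2 scale (SE 0.16, edgeR adjusted p = 0.999), or 1.13-fold with a 95% interval from 0.881-fold to 1.44-fold. The groups overlapped, since UT replicate 2 lay above TTR replicates 1 and 3.

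Mki67 encodes Ki-67, the nuclear protein used in histology to mark cycling cells. Mki67 stood at 663, 544 and 426 CPM on UT and at 481, 632 and 651 CPM on TTR. The order differed from that of Top2a: UT replicate 1 was highest and TTR replicate 3 next, while UT replicate 3 and TTR replicate 1 were the lowest. Means were 544 ± 118 CPM for UT against 588 ± 93.1 CPM for TTR (SD, n = 3). The log2 difference was 0.11 (SE 0.18, edgeR adjusted p = 0.999). Mki67 counts stood 2.20 times Top2a counts in UT replicate 1 and 2.06 times in TTR replicate 3. In the other 4 libraries that ratio was at most 1.69. The ratio was 1.80 ± 0.365 on UT and 1.72 ± 0.299 on TTR (SD, n = 3). These ratios, like the others given here, were chosen after the levels were seen.

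**Figure D1:**
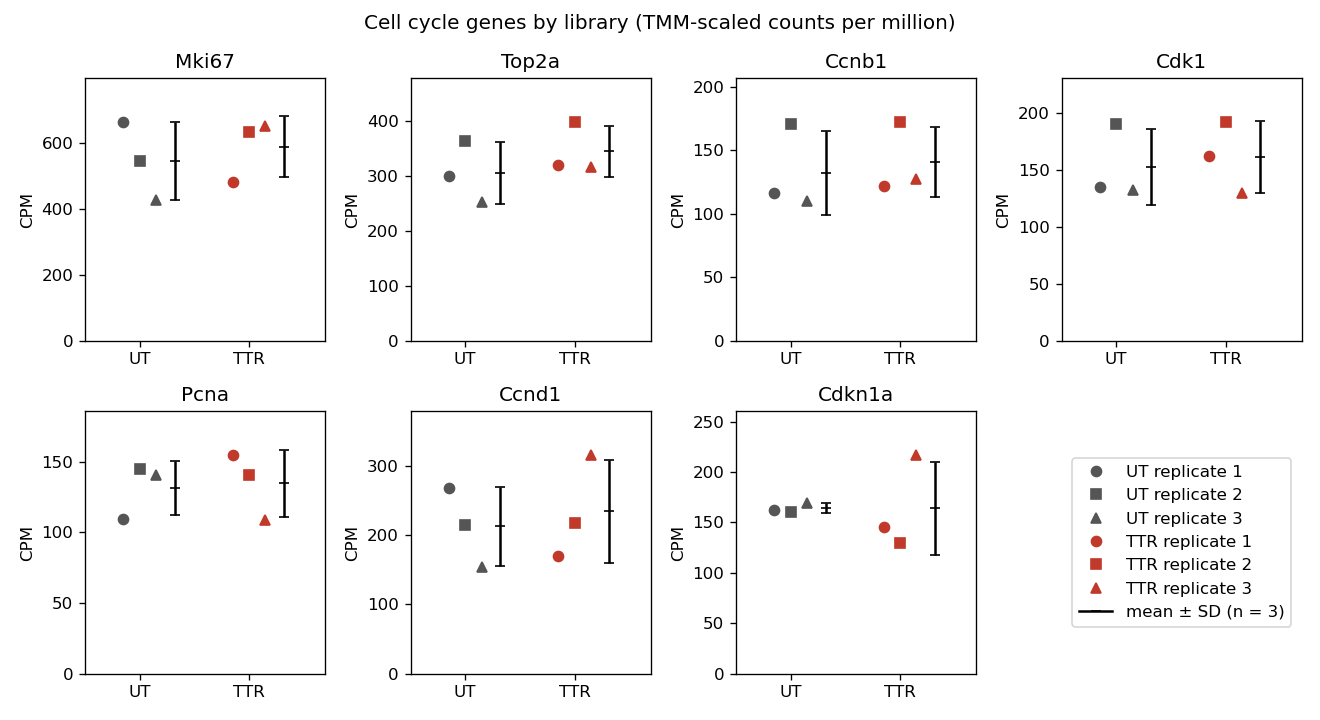
Levels of the 7 cell cycle genes in CPM (y axes from 0, TMM-scaled) in the 3 UT libraries (grey) and 3 TTR libraries (red), with symbols for the replicate numbers and black bars for mean ± SD. Every gene's groups overlap, Ccnb1 and Cdk1 are highest in both libraries numbered 2, and Cdkn1a spans 160 to 170 CPM on UT against 130 to 217 CPM on TTR.

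Pcna encodes the sliding clamp that holds DNA polymerase on its template in S phase. Pcna stood at 109, 145 and 141 CPM on UT and at 155, 141 and 109 CPM on TTR. UT replicate 1 and TTR replicate 3 were the low libraries and the other 4 were close together. Mki67 was highest in those same low libraries. Means were 132 ± 19.4 CPM for UT against 135 ± 23.7 CPM for TTR (SD, n = 3). The log2 difference was 0.04 (SE 0.16, edgeR adjusted p = 0.999).

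Ccnd1, cyclin D1, binds the kinases Cdk4 and Cdk6 in G1 and is induced by growth factors and by adhesion. Ccnd1 stood at 268, 214 and 154 CPM on UT and at 170, 217 and 315 CPM on TTR. It spread more than any other of the 7 genes, with 2.04 times as much in TTR replicate 3 as in UT replicate 3. Means were 212 ± 57.0 CPM for UT against 234 ± 74.1 CPM for TTR (SD, n = 3). The log2 difference was 0.14 (SE 0.25, edgeR adjusted p = 0.999). From the lowest to the highest, Ccnd1 levels placed UT replicate 3 and TTR replicate 1 first, the libraries numbered 2 in the middle, and UT replicate 1 and TTR replicate 3 last. This is the order, in reverse, of the 3 pairs of libraries on the first principal component. The ratio of Ccnd1 to Pcna counts was 1.10 in UT replicate 3 and 1.10 in TTR replicate 1. It was 1.48 and 1.54 in the UT and TTR libraries numbered 2. UT replicate 1 stood at 2.46 and TTR replicate 3 at 2.91. The ratio therefore differed 2.65 times across libraries, while its means were 1.68 ± 0.701 on UT and 1.85 ± 0.942 on TTR (SD, n = 3).

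Cdkn1a encodes p21, an inhibitor of cyclin-dependent kinases and a target of p53. Cdkn1a stood at 163, 160 and 170 CPM on UT and at 145, 130 and 217 CPM on TTR. The 3 UT libraries lay together, with TTR replicate 3 above them and TTR replicates 1 and 2 below them. The mean was 164 CPM in both groups, with an SD of 4.97 on UT and 46.5 on TTR (n = 3), and the log2 difference was -0.0039 (SE 0.18, edgeR adjusted p = 0.999). The coefficient of variation on UT, 3.03%, was close to the 2.95% that counting alone gives. On TTR it was 28.4% against 2.79% from counting, and the difference in spread between the groups was not tested. Without TTR replicate 3 the log2 difference was -0.26 (adjusted p = 0.978, unadjusted p = 0.0402 by the same edgeR test). In that fit 524 of 12196 tested genes had an unadjusted p under 0.05. Among the genes of the set, this was the only unadjusted p under 0.05 in the fits with 1 library left out. Cdkn1a stood at 0.08 without TTR replicate 1 and at 0.14 without TTR replicate 2. The value near 0 from all libraries therefore averages TTR libraries above and below UT. Of the libraries left out in turn, TTR replicate 3 moved it most.

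**Figure D2:**
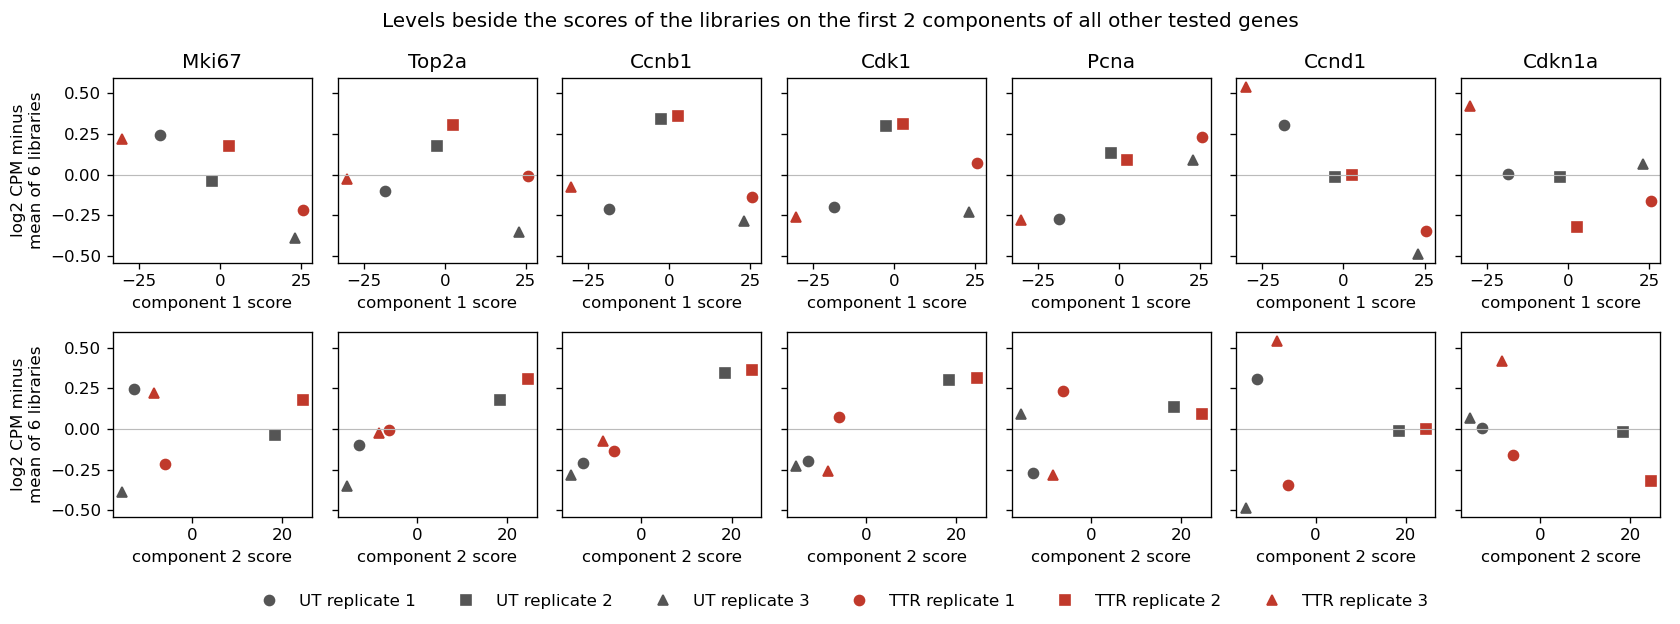
Deviation of each gene's log2 CPM from its mean over the 6 libraries (y axes) against the library scores on component 1 (top row) and component 2 (bottom row) of the 12042 other tested genes. Ccnd1 is lowest in the libraries with the highest component 1 scores, and Top2a, Ccnb1 and Cdk1 are highest in the 2 libraries with component 2 scores of 18.5 and 24.5.

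The 7 genes thus did not vary as a block. Top2a, Ccnb1 and Cdk1 were each highest in the libraries numbered 2 of both groups. Mki67 and Ccnd1 were each highest in UT replicate 1 and TTR replicate 3 and lowest in UT replicate 3 and TTR replicate 1. For Mki67, however, TTR replicate 2 lay close to TTR replicate 3, at 632 against 651 CPM. Pcna was lowest in UT replicate 1 and TTR replicate 3. Each of these pairs of UT and TTR libraries holds 1 library from each substrate, and the labels do not say what the libraries of a pair share. Within these 3 pairs, Top2a, Ccnb1 and Ccnd1 were higher on TTR in 3 of 3, Mki67 and Cdk1 in 2 of 3, and Pcna and Cdkn1a in 1 of 3. The differences ran from 0.07 to 0.34 on the log2 scale for Top2a, from 0.015 to 0.15 for Ccnb1 and from 0.017 to 0.23 for Ccnd1. The smallest differences of Ccnb1 and Ccnd1 were between the libraries numbered 2, where counting alone gives an error of 2.5% to 2.9% per library. At 170 against 172 CPM and 214 against 217 CPM, they lay within that error. As the counts of these libraries also defined the pairs, the differences are a description with no test. The share of all tested genes higher on TTR in 3 of 3 was not computed. Across the 6 libraries, the root mean square difference in log2 CPM, after centring each gene, between Top2a and the mean of Mki67, Ccnb1 and Cdk1 was 0.05. Measured likewise from the mean of the other 3 of these 4 genes, it was 0.13 for Ccnb1, 0.18 for Cdk1 and 0.27 for Mki67. The 12042 genes outside the set had medians between 0.26 and 0.29 from the same means, so Mki67 was about as far from its 3 companions as a typical gene. Nearest to the mean of all 4 among the genes outside the set were ENSRNOG00000024428 at 0.03, with a mean level of 174 CPM, and ENSRNOG00000053084 at 0.05, with 3.84 CPM. Both were picked as the nearest of 12042 genes. At 3.84 CPM counting alone scatters a gene by more than 0.05, so the nearness of ENSRNOG00000053084 may be accidental. ENSRNOG00000024428 had a log2 difference between the substrates of 0.09 (SE 0.16, edgeR adjusted p = 0.999).

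Over the whole set, 0 of the 7 genes passed an adjusted p of 0.05 by the edgeR test, where 0.00830% of the 12049 tested genes did. At that share a count of 0 among 7 genes does not set them apart from the background. At an unadjusted p under 0.05 the count was also 0, beside 2.37% of all tested genes, and DESeq2 called 0 of the 7, beside 0.266% of the genes it tested. With surrogate variables, which stand for variation shared between libraries and were added after seeing the data, the count stayed 0, beside 0.216% of tested genes with 1 variable and 1.30% with 2. With 2 variables Top2a stood at a log2 difference of 0.22 (SE 0.07) with a 95% interval from 0.06 to 0.37, which leaves out 0, at an unadjusted p of 0.0091 and an adjusted p of 0.250 by edgeR. It was the 1 gene of the 7 at an unadjusted p under 0.05 in that fit, beside 9.32% of all tested genes. The variables were estimated from the same 6 libraries and then treated as known. The SE, interval and p of that fit leave out the error of this estimate, so the interval may be too narrow. The groups overlapped for all 7 genes. Of all tested genes, 6.85% had groups without overlap, so a count of 0 among 7 genes does not set them apart here either. The log2 differences ran from -0.0039 for Cdkn1a to 0.17 for Top2a, with a median of 0.09 beside -0.0038 over all tested genes. In size, regardless of sign, the median was 0.09 for the 7 genes and 0.10 for the full tested table.

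A p that misses the threshold does not show that the levels were equal, and the intervals say what sizes of difference these libraries leave. The 95% interval lay inside a 2-fold change in either direction for all 7 genes. It ran from 0.815-fold to 1.43-fold for Mki67, from 0.782-fold to 1.44-fold for Ccnb1 and from 0.791-fold to 1.42-fold for Cdk1. For Pcna it ran from 0.795-fold to 1.32-fold and for Cdkn1a from 0.752-fold to 1.32-fold. Ccnd1 had the widest interval, from 0.745-fold to 1.63-fold. Leaving out 1 library turned the direction for 6 of the 7 genes. Without UT replicate 3, the log2 difference was -0.04 for Mki67, -0.02 for Ccnb1, -0.01 for Cdk1, -0.04 for Ccnd1 and 0.02 for Cdkn1a. Ccnd1 stood at -0.14 without TTR replicate 3 and at 0.35 without UT replicate 1, and Pcna at -0.08 without UT replicate 1. Top2a kept its direction, between 0.06 and 0.32.

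**Figure D3:**
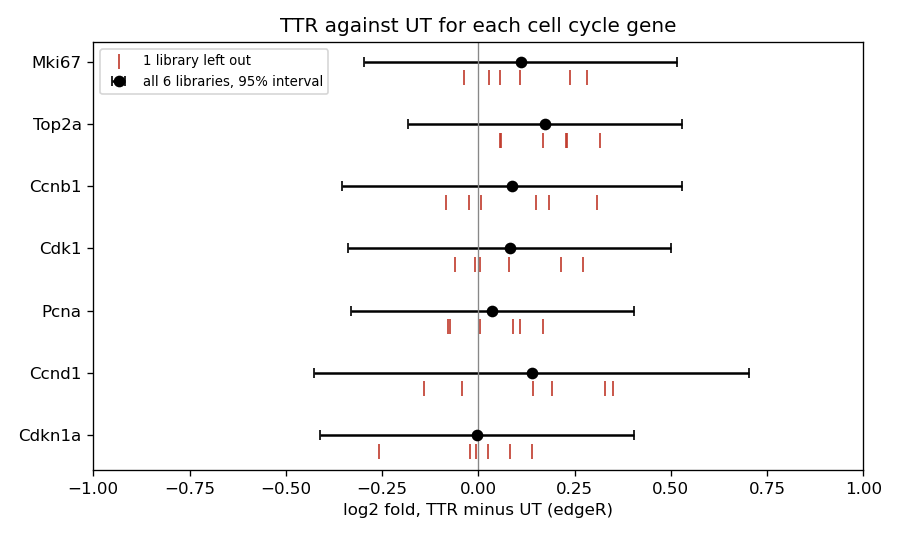
Log2 difference of TTR minus UT (x axis) for each gene (y axis), with the edgeR estimate and 95% interval from all 6 libraries in black and the estimates with 1 library left out as red ticks. All 7 of these intervals cross 0 and lie within 1 on either side, and Ccnd1 has the widest, from -0.43 to 0.70.

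The spread within groups was wide for genes of this level, though for Cdkn1a this rested on TTR replicate 3. The SD of log2 CPM within groups, pooled over both, was 0.42 for Ccnd1, 0.31 for Ccnb1, 0.29 for Cdk1, 0.28 for Mki67, 0.28 for Cdkn1a, 0.24 for Pcna and 0.23 for Top2a. Among the 500 tested genes nearest in mean level to each, the median SD lay between 0.15 and 0.16. Ccnd1 spread more than 98.4% of its 500 neighbours, Ccnb1 more than 92% and Cdk1 more than 88.4%. The shares were 86.2% for Mki67, 86% for Cdkn1a, 82.6% for Pcna and 76.6% for Top2a. For Cdkn1a the SD was 0.04 on UT alone. Without TTR replicate 3 its pooled SD was 0.07, below the median of its neighbours from all libraries, 0.15. The coefficients of variation on UT ran from 14.8% for Pcna to 26.9% for Ccnd1, apart from Cdkn1a at 3.03%, and those on TTR from 13.4% for Top2a to 31.7% for Ccnd1. Except for Cdkn1a on UT, these stood well above the counting error, which was at most 3.35% per group. The difference between the groups accounted for 19.1% of the variance of log2 CPM over the 6 libraries for Top2a, 6.47% for Mki67 and at most 3.72% for the other 5 genes. Groups of 3 libraries that do not differ also give shares of this size, and the unadjusted p of Top2a was 0.298 by edgeR.

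**Figure D4:**
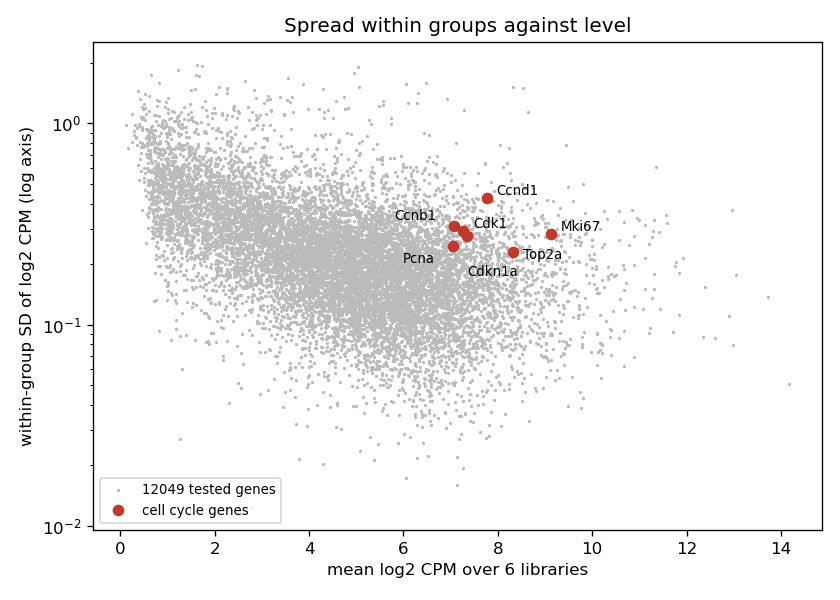
Pooled within-group SD of log2 CPM (y axis, log scale) against mean log2 CPM (x axis) for the 12049 tested genes in grey, with the 7 cell cycle genes in red. All 7 lie above the median SD of genes of like level, Cdkn1a only with TTR replicate 3 included, and Ccnd1 is highest at 0.42.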

How the data were processed

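RNA sequencing gave 6 libraries, 3 UT and 3 TTR. The authors deposited raw counts per gene, whole numbers without normalization. STAR, featureCounts, edgeR and the build rn6 are named in the submitters' processing notes. For the annotation, strand setting and multi-mapping reads, the handling is not given in the sources used here, so reads of overlapping, antisense or near-identical genes may be split or lost. All rows name a gene.

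Genes were tested with the edgeR (4.0.16, R 4.3.3) quasi-likelihood test, TTR against UT on all 6 libraries with group as the only term, two-sided, after filterByExpr with a minimum count of 10 and TMM scaling. This left 12049 genes, over which p-values were adjusted by Benjamini-Hochberg, with calls at 0.05. CPM and log2 CPM (prior count 2) were computed here. SEs came from the fold and the F statistic. The test was tried on simulated data with known changes.

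The 7 genes, the unused symbol lists and the naming rule were chosen with earlier results of these data known. The rule named all 7 genes and, as no symbols could be matched, the 2 IDs nearest the mean of 4 of them. Alternatives were RLE, upper quartile or no scaling factors, DESeq2 (1.42.0), limma-voom (3.58.1), other low count filters, each library left out, and a block for the replicate number. Surrogate variables (sva 3.50.0) were added after seeing the data.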

Additional observations from a re-analysis of the deposited data

How the results depend on the processing

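None of the 7 genes was called under any of the 16 alternatives, and the lowest adjusted p was 0.250, for Top2a with 2 surrogate variables. Top2a kept its direction throughout, from 0.06 to 0.32. Cdkn1a, at -0.0039 by TMM, turned to 0.0032 with upper quartile factors and to 0.0057 with library totals alone. Leaving out 1 library moved the log2 difference between -0.036 and 0.28 for Mki67, between -0.084 and 0.31 for Ccnb1 and between -0.061 and 0.27 for Cdk1. For Pcna the range was -0.078 to 0.17, for Ccnd1 -0.14 to 0.35 and for Cdkn1a -0.26 to 0.14. The within-group SD of Cdkn1a ranged from 0.07 to 0.32, the former without TTR replicate 3.

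With the replicate number as a block, 0 of the 7 genes and 0 of all tested genes were called by edgeR, with 223 genes at an unadjusted p under 0.05. The block gave log2 differences of 0.12 for Mki67 (SE 0.22), 0.18 for Top2a (SE 0.12), 0.10 for Ccnb1 (SE 0.11), 0.08 for Cdk1 (SE 0.12), 0.03 for Pcna (SE 0.19), 0.12 for Ccnd1 (SE 0.32) and -0.04 for Cdkn1a (SE 0.16). The labels do not say what a shared number marks. Deviations from the group means correlated at -0.38, 0.44 and -0.40 for numbers 1, 2 and 3, so the numbers were not taken as pairs; number 2 alone correlated best with itself. UT replicate 3 with TTR replicate 1 (0.58) and UT replicate 1 with TTR replicate 3 (0.52) correlated more, and whether another factor pairs these libraries was not tested. Pathway lists could not be tested without symbols for the rows. Counting errors of the 7 genes were at most 3.35% per group.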
